A study of Mus musculus with 9 samples.

Results

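Gastrocnemius muscle of mice aged 15 months, called midlife in the column names, was compared with that of mice aged 6 months, called youth. The comparison took 6 of the 9 RNA-seq libraries of the series, 3 at 6 months and 3 at 15 months, chosen by the age in their labels, with 1 mouse per library. The other 3 libraries came from mice aged 21 months and entered the estimate of the spread, the slope of a covariate described below and values set side by side. The samples carry no label for genotype, treatment, strain, sex, diet, hour of collection or batch, so age is the one difference the labels give, and 3 mice an age limit what can be seen. Levels are given as CPM, counts scaled to library size. The tissue label held in every library: Acta1, the skeletal alpha-actin, stood at 29808 to 31276 CPM at 6 months and 20876 to 28216 CPM at 15 months, and Ckm, the muscle creatine kinase, at 19439 to 22658 CPM at 6 months and 14163 to 20828 CPM at 15 months. The Y-linked gene Uty stood at 38.2 to 42.7 CPM at 6 months and 36.6 to 40.7 CPM at 15 months, so the ages did not differ in the presence of a Y chromosome.

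The gastrocnemius is a large calf muscle in which fast glycolytic fibres dominate in the mouse and slow oxidative fibres are few and lie in its deep part. Slow fibres carry their own isoforms of myosin, troponin and the calcium pump and burn fatty acids in abundant mitochondria, whereas fast fibres run mainly on glycogen and glycolysis. Thyroid hormone receptor alpha, which the title of the series names, is the main receptor through which thyroid hormone acts on muscle and favours fast fibre genes. A piece of whole muscle also holds blood vessels, nerve, fibroblasts, macrophages and tendon, and in such bulk samples fewer cells of a type and less RNA per cell cannot be told apart.

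Of 17314 genes in the table, 13044 passed the filter on low counts and were tested. At 15 against 6 months 1 gene, Mybph, passed an adjusted p of 0.05 in edgeR, which is 0.00767% of the genes tested. All genes described below other than Mybph had an adjusted p above 0.05, so their values describe these 6 mice and are not calls. At an unadjusted p under 0.05, which serves only as a background for counts within gene groups, 640 genes (4.91%) stood higher and 702 (5.38%) lower, 1342 in all and 815 without mouse 2 at 15 months. In 866 genes (6.64%) all 3 mice at 15 months lay above all 3 at 6 months, and in 931 (7.14%) all 3 lay below. The median log2 fold change of all genes was -0.007, with 6333 genes higher and 6711 lower. Scaling by total count in place of TMM moved the median to 0.07 and the split to 8291 higher and 4753 lower, so small shifts of a whole group depend on the scaling. DESeq2 called 114 genes, 40 higher and 74 lower, where edgeR called 1.

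Slow fibre genes varied widely between mice of 1 age and also stood higher at 15 months. For Myh7, the heavy chain of slow myosin, the level stood at 2.33, 0.438 and 12.8 CPM at 6 months and 166, 49.7 and 22.7 CPM at 15 months, a log2 fold change of 3.94 (SE 1.35). The groups did not overlap, but within the 6-month group mouse 2 held almost no Myh7, and within the 15-month group mouse 1 held more than 3 times the level of either other mouse. Tnnt1 and Tnni1, the slow skeletal troponins T and I, showed the same order of mice: Tnnt1 stood at 5.91, 1.31 and 6.38 CPM at 6 months and 74.01, 27.4 and 17.8 CPM at 15 months. Tnni1 stood at 1.57, 0.313 and 2.51 CPM at 6 months and 30.9, 8.07 and 6.06 CPM at 15 months. Myl3, a slow myosin light chain, ranged over 0.501 to 32.2 CPM at 6 months and 68.5 to 180.4 CPM at 15 months, and Tnnc1, the slow troponin C, over 0.250 to 4.17 CPM at 6 months and 8.28 to 34.03 CPM at 15 months. Atp2a2, the calcium pump SERCA2 of slow fibres, stood at 68.8, 53.2 and 78.5 CPM at 6 months and 241, 159.6 and 99.7 CPM at 15 months, with 1.32 (SE 0.37), and had the smallest p-value of the list. Of the 12 slow fibre genes, 12 were higher at 15 months, 7 had an unadjusted p under 0.05 against 4.91% of all genes, and in 6 the groups did not overlap. Without mouse 1 at 15 months 3 of them had an unadjusted p under 0.05.

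A slow fibre score was formed for each mouse as the mean log2 CPM of these 12 genes relative to the 6-month mean. The score was 1.45, -2.39 and 0.93 in mice 1, 2 and 3 at 6 months and 4.12, 2.75 and 1.93 at 15 months. At 21 months it was 1.17, 2.03 and 3.93, so the oldest mice spanned almost the same range and did not stand beyond the 15-month group. Every 15-month mouse scored above every 6-month mouse. Age and slow fibre content can therefore be told apart only in part, and 2 checks were made, of which 1 or both are given with many of the groups below. The first adds the score as a covariate to the model. The second leaves out the 3 libraries farthest out on the score: mouse 2 at 6 months, mouse 1 at 15 months and mouse 3 at 21 months. Without these libraries the 6-month scores of 1.45 and 0.93 still lay below the 15-month scores of 2.75 and 1.93. Of the 12 slow fibre genes 11 stayed higher, 6 at an unadjusted p under 0.05, with a median of 0.99. The second check therefore leaves a slow fibre difference between the ages in place. Of the 1342 genes with an unadjusted p under 0.05, 434 (32.3%) kept their sign and an unadjusted p under 0.05 with the covariate, and 720 (53.7%) did so without the 3 libraries. Those libraries also lay at the ends of the principal component that held 35.2% of the variance.

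**Figure D1:**
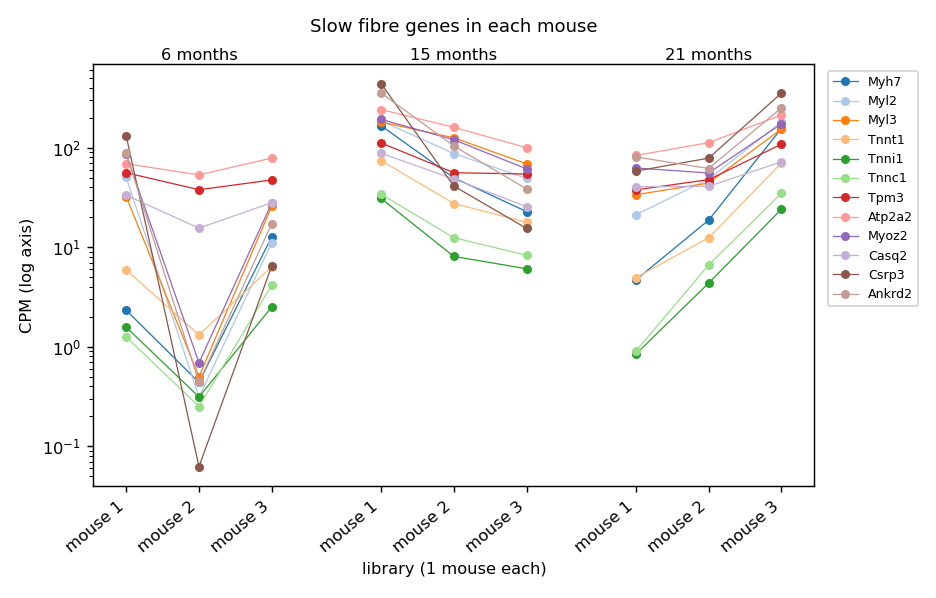
CPM (log axis) of the 12 slow fibre genes in each of the 9 mice, in 3 blocks by age, with a line joining the values of 1 gene within an age. Mouse 2 at 6 months lies lowest in 11 of the 12 genes, and mouse 1 at 15 months and mouse 3 at 21 months lie high, with Myh7 at 0.438, 166 and 156 CPM in the 3 libraries.

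The other myosin heavy chains followed the same spread. Myh2, the heavy chain of oxidative fast fibres, stood at 1611, 0.751 and 529.98 CPM at 6 months and 4395, 2825 and 834 CPM at 15 months. Myh1, the myosin of intermediate fast fibres, stood at 3849.7, 159 and 1733 CPM at 6 months and 6994, 3070.0 and 1850.1 CPM at 15 months. In both genes mouse 2 at 6 months was far below every other mouse and the groups overlapped. Myh4, the myosin of the fastest fibres, stood at 47989.5, 49750.1 and 55789 CPM at 6 months and 33611, 50864 and 60203 CPM at 15 months, with -0.09 (SE 0.26), and its lowest value belonged to mouse 1 at 15 months, the mouse highest on slow fibre genes.

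Mybph, a small relative of myosin-binding protein C that sits on thick filaments, was the gene that passed. It stood at 149.6, 175 and 259 CPM in the 3 mice at 6 months and at 45.8, 21.5 and 25.02 CPM at 15 months, or 194 ± 57.1 against 30.8 ± 13.2 CPM (mean ± SD, n = 3 each). Mybph thus fell by 2.66 on the log2 scale (SE 0.29, adjusted p = 0.0441 in edgeR), and the lowest mouse at 6 months held more than 3 times the CPM of the highest at 15 months. At 21 months the values were 94.1, 114 and 89.3 CPM, between the other groups with no overlap with either. With the slow fibre score as a covariate its log2 fold change was -2.92, and without the 3 libraries -3.13, so the difference was as large in both checks. The adjusted p of edgeR was 0.269 with the covariate and 0.0285 without the 3 libraries. The call also ended when mouse 1 or 2 at 6 months, mouse 2 or 3 at 15 months or any mouse at 21 months was left out, with an adjusted p from 0.0655 to 0.263 in edgeR and a log2 fold change from -2.82 to -2.46. The gene lies on chromosome 1 from 134193418 to 134201237 (GRCm38.p6, the assembly behind mm10). Its exons overlap those of Adora1, an adenosine receptor gene on the opposite strand, over 1162 bases, and without a stated strand rule reads of that stretch cannot be told apart. Adora1 itself, named here for this overlap, stood at 1.32, 1.13 and 3.62 CPM at 6 months and 0.496, 0.555 and 0.253 CPM at 15 months.

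The promoter of Mybph is shown because it is the promoter of the gene that was called. It spans 250 bases before to 50 bases after a start site in the RefSeq table, at chr1:134193198-134193497 on the plus strand of GRCm38.p6, and reads 5′ to 3′, with capitals marking matches to a pair of motifs.
Mybph promoter: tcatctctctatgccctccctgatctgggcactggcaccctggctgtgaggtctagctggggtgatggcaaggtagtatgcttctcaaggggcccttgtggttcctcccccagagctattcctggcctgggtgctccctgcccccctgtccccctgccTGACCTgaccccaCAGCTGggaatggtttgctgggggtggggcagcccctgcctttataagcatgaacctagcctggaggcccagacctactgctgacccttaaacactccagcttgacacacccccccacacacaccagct
The motifs searched, on both strands, were CAGCTG, an E-box of the kind bound by myogenic factors, which reads alike on both strands, and AGGTCA, the half-site of nuclear receptors such as the thyroid hormone receptors. CAGCTG began 79 bases before the start and AGGTCA lay on the minus strand from 92 bases before it, printed there as TGACCT, and the matches did not overlap. Each motif occurs in 16.3% of the 32851 promoters of the same length in the table, so a match is a description of the letters and not a binding site.

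The 15 genes that stood higher with the smallest p-values and groups that did not overlap had varied functions, and no shared function was tested. Irx3, a homeobox factor, stood at 3.33, 3.63 and 3.99 CPM at 6 months and 8.86, 6.84 and 7.71 CPM at 15 months, with a log2 fold change of 1.09 (SE 0.16). Ogdhl, a tissue-restricted relative of oxoglutarate dehydrogenase in the citric acid cycle, stood at 1.26, 1.13 and 2.02 CPM at 6 months and 4.03, 6.04 and 4.86 CPM at 15 months. Its difference was 1.75 (SE 0.25). Tmem37, a membrane protein related to calcium channel gamma subunits, stood at 16.6, 11.9 and 17.6 CPM at 6 months and 30.4, 33.3 and 42.01 CPM at 15 months, with 1.20 (SE 0.18). Nr4a3, an orphan nuclear receptor induced by exercise, stood at 3.02, 1.38 and 2.15 CPM at 6 months and 13.7, 7.71 and 6.13 CPM at 15 months, with 2.07 (SE 0.36). It was highest in mouse 1 at 15 months and lowest in mouse 2 at 6 months, the mice at the ends of the slow fibre score, and its difference was 1.47 with the covariate. Hk2, the hexokinase that commits glucose to use in muscle, stood at 288, 303 and 362 CPM at 6 months and 469.8, 616 and 563 CPM at 15 months, with 0.79 (SE 0.15) and 0.73 with the covariate. Mgst1, a microsomal glutathione transferase, stood at 57.5, 41.2 and 38.1 CPM at 6 months and 105, 83.8 and 84.5 CPM at 15 months, with 0.998 (SE 0.19). Mchr1, the receptor of melanin-concentrating hormone, stood at 1.05 and at 0.56 with the covariate, the member of the 15 that kept the smallest share of its difference there. The rest comprised Map7, a microtubule-binding protein, at 0.81 (SE 0.13), Cdk5rap1, which modifies mitochondrial transfer RNA, at 0.67 (SE 0.11), and Ppcs, an enzyme of coenzyme A synthesis, at 0.72 (SE 0.13). Low-level genes among them were Ccn5, a secreted matricellular protein, at 1.34 (SE 0.25), Sctr, the secretin receptor, at 1.09 (SE 0.22), and Ube2t, a ubiquitin-conjugating enzyme of DNA repair, at 1.30 (SE 0.26). Xbp1 and Hspa5 complete the 15 and are described with the unfolded protein response.

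The 15 genes that stood lower, Mybph included, were chosen in the same way, with groups that did not overlap, and were as varied in function. Pnpla3, a lipid droplet protein that follows the supply of lipid and sugar, stood at 26.1, 21.8 and 10.5 CPM at 6 months and 6.38, 3.94 and 2.59 CPM at 15 months, with -2.17 (SE 0.37). Srebf1, the transcription factor that drives fatty acid synthesis, stood at 56.2, 75.6 and 95.5 CPM at 6 months and 29.3, 33.5 and 44.5 CPM at 15 months, with -1.08 (SE 0.20). With the covariate the differences of Pnpla3 and Srebf1 were -2.28 and -0.86. Grb10, an adaptor that restrains insulin and IGF receptors, stood at 56.9, 68.8 and 66.9 CPM at 6 months and 45.0, 41.4 and 35.6 CPM at 15 months, with -0.66 (SE 0.11). Trp53inp1, a p53-induced stress gene, stood at 60.02, 60.3 and 44.9 CPM at 6 months and 33.8, 30.6 and 33.4 CPM at 15 months, with -0.76 (SE 0.13). Arrdc4, an arrestin-domain protein induced by glucose, stood at 24.5, 38.2 and 28.6 CPM at 6 months and 15.9, 14.8 and 18.1 CPM at 15 months, with -0.90 (SE 0.17) and -0.52 with the covariate. Avil, the actin-binding protein advillin, stood at 53.5, 52.8 and 20.5 CPM at 6 months and 12.6, 12.1 and 15.98 CPM at 15 months. Its level in mouse 3 at 6 months was near that of the 15-month mice, a pattern that returns among the glucocorticoid-responsive genes. Myo1f, a myosin of immune cells, stood at 4.21, 2.44 and 2.64 CPM at 6 months and 1.18, 1.05 and 0.569 CPM at 15 months, with -1.72 (SE 0.32), and Slc10a6, a transporter of steroid sulphates, at -1.33 (SE 0.24). Smaller differences were those of Rsrp1, an arginine- and serine-rich protein, at -0.55 (SE 0.11), Dnm3, a dynamin, at -0.71 (SE 0.14), Rhof, a small GTPase of filopodia, at -0.48 (SE 0.10), and Prdm15, a zinc finger regulator, at -0.51 (SE 0.10). Ovgp1, an oviductal glycoprotein gene, stood at -0.83 (SE 0.16), and Nr1d1 is described with the clock. The annotation places exons of Avil, Srebf1 and Rhof opposite exons of Tsfm, Rai1 and Tmem120b, so their reads carry the same limit as those of Mybph.

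These 30 genes were chosen by their p-values and by groups without overlap, so their directions are a description. The checks and DESeq2 refit the same libraries or a part of them, so the counts that follow were largely set by that choice and are no independent support. All 30 kept their sign and an unadjusted p under 0.05 in both slow fibre checks, where the ratio of the new to the original log2 fold change ran from 0.537 to 1.26 with the covariate and from 0.687 to 1.20 without the 3 libraries. In DESeq2 all 30 had an adjusted p under 0.05. In edgeR the adjusted p of the other 29 ran from 0.136 to 0.194. Against the same 6-month mice, the 21-month mice stood at 1.12 for Irx3, 1.35 for Ogdhl, -2.70 for Pnpla3, -1.16 for Srebf1 and -0.58 for Grb10. Mybph and Nr1d1 stood closer to the 6-month mice at 21 months than at 15 months, at -0.97 and -0.30. The 6-month mice are shared by both comparisons.

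**Figure D2:**
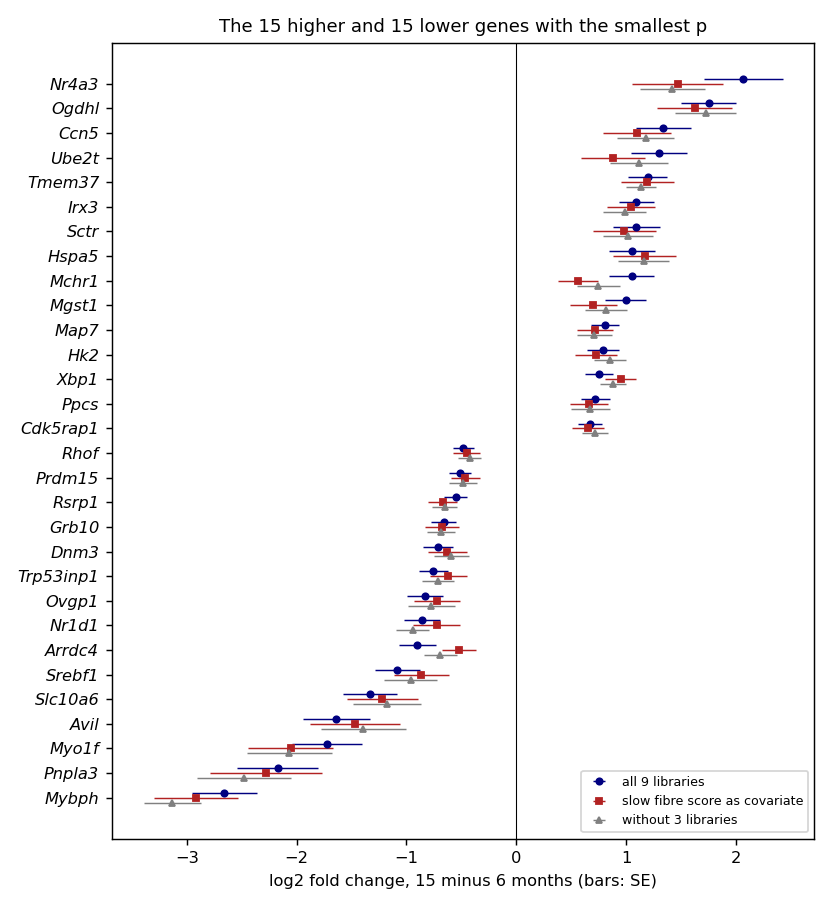
Log2 fold change, 15 minus 6 months, with SE bars, of the 15 higher and 15 lower genes with the smallest p-values, from all 9 libraries (blue circles), with the slow fibre score as covariate (red squares) and without 3 libraries (grey triangles). All 30 genes, chosen from these same libraries, keep their side of 0 in the 3 fits, and Mybph lies farthest to the left at -2.66.

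Across 41 groups of genes with related functions and at least 5 members tested, medians ran from -0.95 for MHC class II to 2.31 for slow fibre genes. Several groups of energy metabolism lost or reversed their shift with the covariate: fatty acid oxidation went from 0.45 to -0.13, the citric acid cycle from 0.16 to -0.13 and glycolysis from -0.28 to -0.08. Groups that kept or enlarged their shift included collagens and matrix, at -0.23 and -0.47, the unfolded protein response, at 0.22 and 0.34, MHC class II, at -0.95 and -1.39, and interferon-stimulated genes, at -0.30 and -0.47. The median of collagens and matrix nevertheless turned to 0.08 without mouse 3 at 6 months. Of 50 groups, cell type markers included, 21 changed the sign of their median with the covariate and 14 did so without the 3 libraries.

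**Figure D3:**
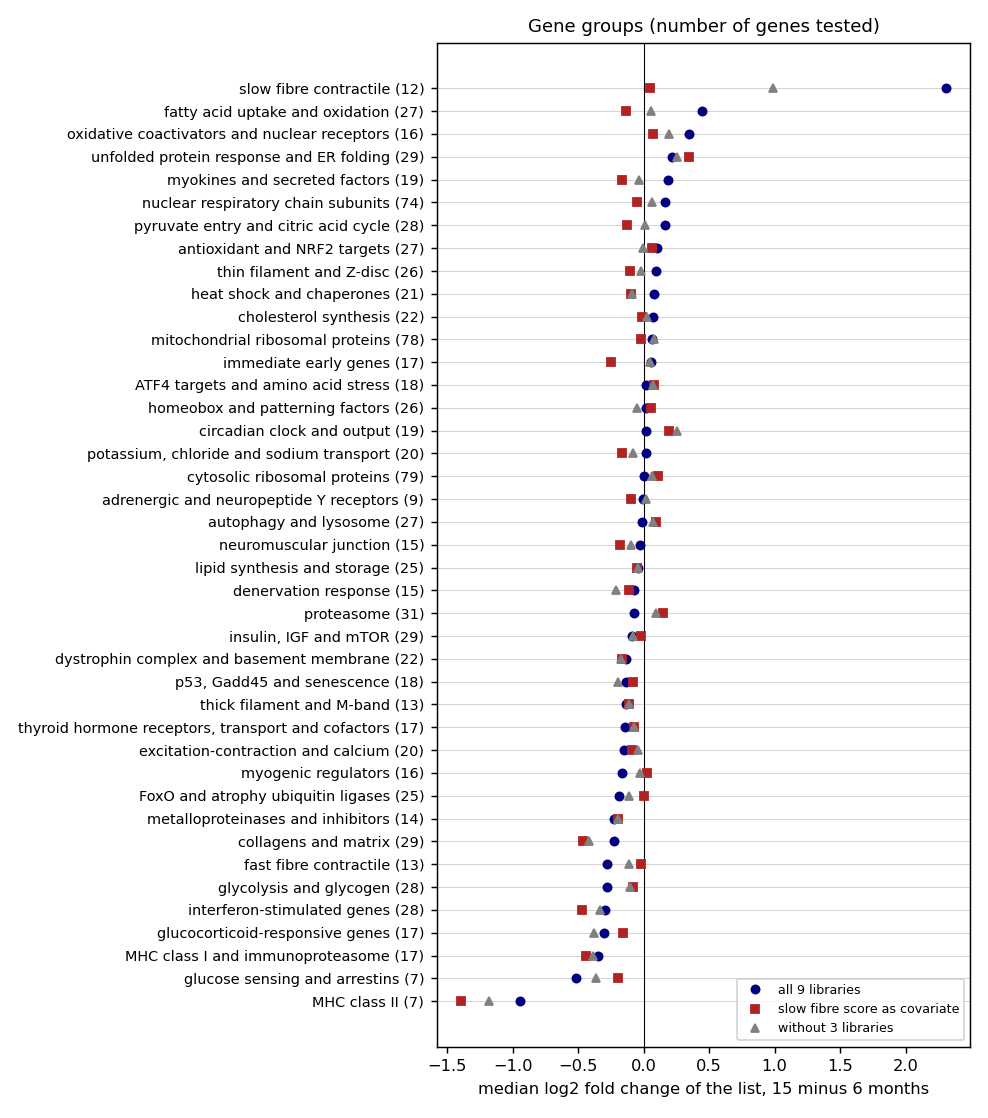
Median log2 fold change, 15 minus 6 months, of each functional gene group (number of genes tested in parentheses) from all 9 libraries, with the slow fibre score as covariate and without 3 libraries. Slow fibre genes move from 2.31 to 0.05 with the covariate because the score is made of these same genes, and the unfolded protein response stands between 0.22 and 0.34 in the 3 fits.

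Among contractile genes outside the slow list, fast fibre genes stood lower in 12 of 13, with a median of -0.28 that shrank to -0.02 with the covariate. Mylpf, the fast regulatory light chain, stood at 8263, 10314 and 9604 CPM at 6 months and 6419, 6920.2 and 7894 CPM at 15 months, with -0.41 (SE 0.16), and the groups did not overlap. Myoz1, a Z-disc protein of fast fibres, ranged over 1996 to 2727 CPM at 6 months and 1662 to 2093 CPM at 15 months, with -0.39 (SE 0.15). The median of thick filament and M-band genes was -0.14. Of 13 genes 2 stood lower at an unadjusted p under 0.05, against 5.38% of all genes. They were Mybph and Mylk2, the kinase of the regulatory light chain, at -0.49 (SE 0.22). Of 26 thin filament and Z-disc genes, 1 stood higher and 2 lower at that level, against 4.91% and 5.38% of all genes. Actc1, the cardiac actin that fetal and regenerating skeletal muscle expresses, stood at 58.8, 58.02 and 460.4 CPM at 6 months and 25.3, 17.8 and 9.35 CPM at 15 months. Its difference was -3.46 (SE 0.82), and mouse 3 at 6 months held most of the group's level, although the other 6-month mice also lay above every 15-month mouse. Pdlim7, a Z-disc adaptor, stood at 188, 221 and 206 CPM at 6 months and 117, 127 and 156 CPM at 15 months, with -0.62 (SE 0.13) and -0.39 with the covariate. Lmod3, which nucleates actin filaments, stood at 0.54 (SE 0.23) and at 0.11 with the covariate.

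Genes of muscle identity, nerve contact and excitability held few members that stood apart. Of 16 myogenic regulators and 15 denervation genes, Myog, the factor that drives differentiation and responds to denervation, was among those lower, at 5.09, 8.14 and 4.90 CPM at 6 months and 3.78, 2.90 and 2.59 CPM at 15 months, with -0.97 (SE 0.23) and no overlap. Neuromuscular junction genes had a median of -0.03, which total count scaling turned to 0.05, and Ache, the acetylcholinesterase, stood at -0.35 (SE 0.13). Of 20 genes of excitation-contraction coupling, Stac3, an adaptor of the voltage sensor, was the one with an unadjusted p under 0.05, at -0.29 (SE 0.10). Among 20 ion transport genes, 1 stood higher and 3 lower at that level, against 4.91% and 5.38% of all genes. Atp1b2, a sodium pump subunit, stood at 313, 397 and 373 CPM at 6 months and 149, 234 and 271 CPM at 15 months, with -0.73 (SE 0.24) and -0.28 with the covariate. Its sister subunit Atp1b1 stood at 149, 10.3 and 88.04 CPM at 6 months and 463, 296 and 121 CPM at 15 months, in the order of the slow fibre score within each age but with groups that overlapped, and its difference of 1.83 became -0.18 with the covariate. Kcnj11, the pore of the muscle ATP-sensitive potassium channel, stood at -0.35 (SE 0.11), and Kcnj12, an inward rectifier, at -0.47 (SE 0.17). With the covariate they stood at -0.25 and -0.16. In the dystrophin complex and basement membrane, 3 of 22 genes stood lower at an unadjusted p under 0.05 against 5.38% of all genes. Among them were Dtna, the dystrobrevin, at 166, 182 and 168 CPM at 6 months and 126, 130.4 and 127 CPM at 15 months, and Dag1, the dystroglycan, at -0.32 (SE 0.12). Dtna stood at -0.43 (SE 0.10) and at -0.41 with the covariate.

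Glycolysis genes stood lower in 19 of 28, and 6 had an unadjusted p under 0.05 against 5.38% of all genes. With the covariate the count was 1 and without the 3 libraries 3, while leaving out 1 library at a time gave from 3, without mouse 2 of either age, to 11, without mouse 3 at 15 months. Pgk1, phosphoglycerate kinase, stood at 1502, 1997 and 1833 CPM at 6 months and 1221, 1244 and 1336 CPM at 15 months, with -0.49 (SE 0.14). Ldha, the lactate dehydrogenase subunit of fast fibres, stood at 2953, 3145 and 2880.2 CPM at 6 months and 2147, 2302 and 2472 CPM at 15 months, with -0.38 (SE 0.12), and Eno3, the muscle enolase, at -0.36 (SE 0.14). In each of these 3 genes all 15-month mice lay below all 6-month mice. Ppp1r3c, which targets a phosphatase to glycogen, stood at 1321, 2281 and 696 CPM at 6 months and 328, 465 and 560.4 CPM at 15 months, with -1.67 (SE 0.42). Its highest value belonged to mouse 2 at 6 months, the lowest on slow fibre genes, and the difference was -0.71 with the covariate. Against the group, Hk2 (above) and Pfkfb1, an enzyme that sets the level of fructose 2,6-bisphosphate, stood higher, Pfkfb1 at 0.38 (SE 0.13).

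The differences of most oxidative genes were positive, with the highest levels in mouse 1 at 15 months, the mouse with the highest slow fibre score. In the citric acid cycle 24 of 28 genes, in the nuclear respiratory chain 70 of 74 and in fatty acid oxidation 26 of 27 were higher. In 1, 1 and 0 of them, in that order, the groups did not overlap, against 6.64% of all genes. At an unadjusted p under 0.05 there were 2, 1 and 2, which is near or below the 4.91% of all genes. These counts depended on single libraries: without mouse 3 at 15 months 7 respiratory chain and 11 fatty acid oxidation genes stood higher at that level, without mouse 1 at 6 months 4 citric acid cycle and 7 fatty acid oxidation genes did, and without mouse 3 at 21 months 5 citric acid cycle genes did, whereas without mouse 1 at 15 months 0 fatty acid oxidation genes did. Mean levels of the fatty acid oxidation genes relative to the 6-month mean were 0.39, -0.04 and -0.35 log2 units at 6 months and 1.09, 0.30 and -0.01 at 15 months, and mouse 1 at 15 months alone stood above the range of the younger mice. Fabp3, a fatty acid-binding protein of oxidative muscle, stood at 441, 172 and 216 CPM at 6 months and 1239, 598 and 306 CPM at 15 months. Its difference of 1.37 (SE 0.55) was -0.002 with the covariate. Acsl1, which activates long-chain fatty acids, stood at 383, 267 and 245 CPM at 6 months and 855, 459 and 365 CPM at 15 months, with 0.91 (SE 0.34). Pdp1, the phosphatase that activates pyruvate dehydrogenase, stood at 132, 104 and 227 CPM at 6 months and 201, 251 and 274 CPM at 15 months, with 0.65 (SE 0.25), and Cox8a, a subunit of cytochrome c oxidase, at 0.37 (SE 0.12). Without mouse 1 at 15 months the medians of the 3 lists were 0.07, 0.04 and 0.11, against 0.16, 0.16 and 0.45 with it.

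Of 16 coactivators and nuclear receptors of oxidative metabolism, 4 stood higher at an unadjusted p under 0.05, against 4.91% of all genes, and 0 lower. Esrrg, an estrogen-related receptor abundant in oxidative muscle, stood at 20.4, 6.70 and 19.7 CPM at 6 months and 83.9, 45.9 and 25.8 CPM at 15 months, with 1.73 (SE 0.50) and 0.33 with the covariate. Esrrb, its relative, ranged over 0.626 to 5.22 CPM at 6 months and 3.16 to 15.6 CPM at 15 months and stood at 1.64 and -0.30. Nrip1, a corepressor that restrains oxidative genes, stood at 53.4, 62.5 and 58.6 CPM at 6 months and 54.5, 102 and 133 CPM at 15 months. It was higher in mice 2 and 3 at 15 months but not in mouse 1, and its difference was 0.73 (SE 0.25) and, unlike that of the receptors, larger with the covariate, at 1.10. Nr4a3 was the fourth. Without mouse 3 at 21 months, which enters through the shared spread, 7 genes stood higher at that level.

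Lipid synthesis and storage genes were mixed, with 2 higher and 2 lower of 25 at an unadjusted p under 0.05. The shares of all genes were 4.91% and 5.38%. The lower genes were Srebf1 and Pnpla3. Dgat2, which makes triglyceride, stood at 18.9, 2.88 and 8.64 CPM at 6 months and 48.9, 42.3 and 21.1 CPM at 15 months, in the order of the slow fibre score, with 1.88 (SE 0.64) and 0.33 with the covariate. Gpam, the mitochondrial enzyme at the start of glycerolipid synthesis, stood at 0.51 (SE 0.20) and at 0.19. Cholesterol synthesis genes had a median of 0.07, with Pmvk, a mevalonate pathway kinase, as the member with an unadjusted p under 0.05, at 0.40 (SE 0.15).

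Among thyroid hormone genes, Thra, which encodes thyroid hormone receptor alpha, stood at 90.1, 106 and 93.3 CPM at 6 months and 78.4, 65.5 and 82.001 CPM at 15 months, with -0.36 (SE 0.11) (adjusted p = 0.342 in edgeR). The groups did not overlap, and the difference was -0.24 with the covariate and -0.31 without the 3 libraries. Thrb, the other receptor, stood at 33.7, 35.4 and 33.4 CPM at 6 months and 27.8, 31.4 and 30.8 CPM at 15 months, with -0.19 (SE 0.09) and -0.06. The last exon of Thra overlaps 263 bases of an Nr1d1 exon that runs the other way, and Nr1d1 was lower in the same mice, so part of the reads of either gene cannot be told apart. Dio2, the deiodinase that makes active hormone inside cells, stood at 2.07, 1.82 and 2.27 CPM at 6 months and 5.83, 5.98 and 2.91 CPM at 15 months, with 1.25 (SE 0.31) and 0.82 with the covariate. Of 17 genes in the list 15 were lower, with a median of -0.14 and -0.07 with the covariate. The split became 7 higher and 10 lower with the covariate, and the same with total count scaling, so it depends on both. Counts at an unadjusted p under 0.05 were 1 higher and 2 lower, against 4.91% and 5.38% of all genes.

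Genes of protein folding in the endoplasmic reticulum stood higher at 15 months. When unfolded proteins collect there, sensors in its membrane raise the transcription factor Xbp1 and chaperones such as Hspa5. Of 29 genes tested, 25 were higher, and 12 of them had an unadjusted p under 0.05 against 4.91% of all genes. In 13 the groups did not overlap, against 6.64%. Xbp1 stood at 87.3, 97.4 and 78.2 CPM at 6 months and 139, 164 and 141 CPM at 15 months, with 0.75 (SE 0.12), and Hspa5, the main chaperone, stood at 227, 228 and 255 CPM at 6 months and 396, 683 and 393 CPM at 15 months, with 1.05 (SE 0.21). Both had been chosen among the 15 higher genes above for groups without overlap, and mouse 2 at 15 months was the highest in both. Dnajb9, a cochaperone of Hspa5, stood at 67.6, 71.5 and 60.3 CPM at 6 months and 99.3, 172 and 95.3 CPM at 15 months, with 0.88 (SE 0.20). Manf, a protein secreted under such stress, stood at 23.001, 15.02 and 23.7 CPM at 6 months and 32.9, 68.6 and 34.7 CPM at 15 months, with 1.14 (SE 0.28). Pdia3, a disulphide isomerase, stood at 76.1, 61.4 and 78.05 CPM at 6 months and 92.2, 112 and 91.7 CPM at 15 months, with 0.46 (SE 0.12), and Canx, the lectin chaperone calnexin, stood at 0.40 (SE 0.11). The same mouse was highest in each of these genes.

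Every 15-month mouse stood above every 6-month mouse both in the mean level of the folding genes and in the slow fibre score. Within each age the order of mice differed between the 2 measures. Mean levels of the list were -0.001, -0.04 and 0.04 log2 units in mice 1, 2 and 3 at 6 months and 0.18, 0.55 and 0.23 at 15 months, so mouse 2 and not mouse 1, the highest on slow fibre genes, led the older group. With the covariate the median was 0.34 with 13 genes at an unadjusted p under 0.05, and without the 3 libraries 0.26 with 13. Leaving out each library in turn kept the median between 0.14 and 0.28, lowest without mouse 2 at 15 months, where 8 genes had an unadjusted p under 0.05. The 21-month mice stood at 0.56, 0.56 and 0.34, and Xbp1 and Hspa5 there stood at 1.12 and 1.39 against the same 6-month mice.

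**Figure D4:**
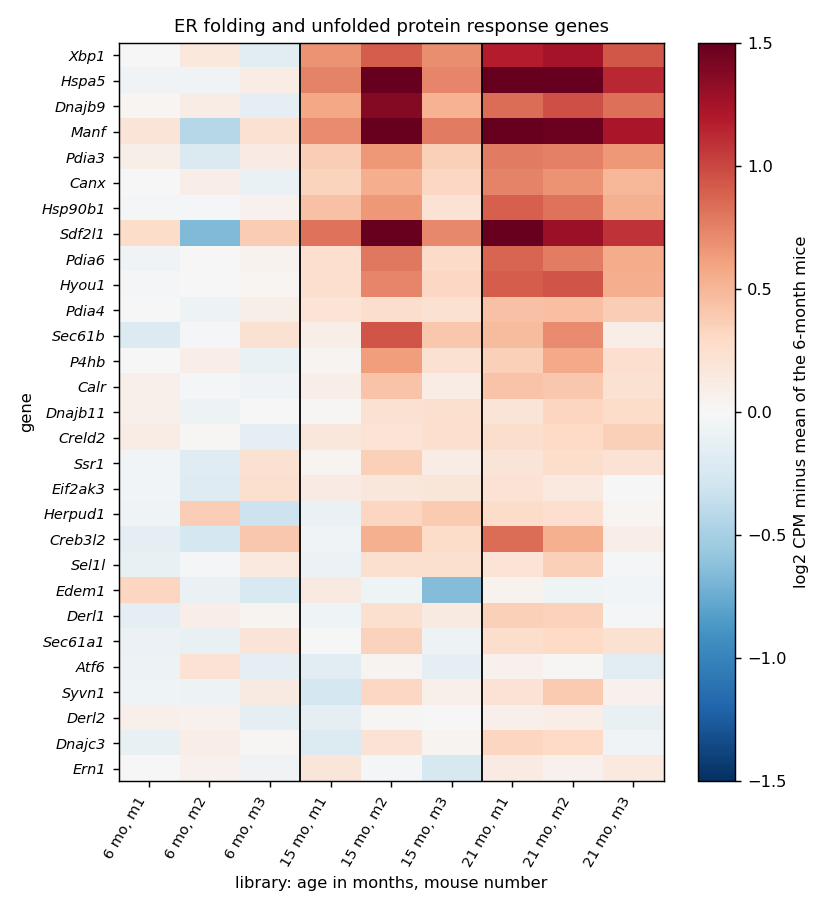
Log2 CPM minus the mean of the 6-month mice for the 29 folding and unfolded protein response genes (rows, by p-value at 15 against 6 months) in each of the 9 mice (columns). Most of the upper 13 rows are redder in the 15-month than in the 6-month mice, most in mouse 2 at 15 months, where Hspa5 stood at 683 CPM.

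Other stress programmes held members on both sides. Of 18 ATF4 targets, 2 stood higher and 1 lower at an unadjusted p under 0.05, against 4.91% and 5.38% of all genes, and the smallest p-value was that of Ddit4, an inhibitor of mTOR, at -2.12 (SE 0.53). Ddit3, a factor induced by prolonged folding stress, stood at 16.97, 12.9 and 16.7 CPM at 6 months and 30.6, 26.1 and 16.99 CPM at 15 months, with 0.66 (SE 0.22) and 0.20 with the covariate. Trib3, a pseudokinase of the same arm, ranged over 0.797 to 1.94 CPM at 6 months and 1.83 to 2.48 CPM at 15 months, with 0.78 (SE 0.31), while the median of the list was 0.02. Without mouse 3 at 6 months 1 ATF4 target stood higher and 3 lower, and without mouse 1 at 15 months 0 and 2. Of 21 cytosolic heat shock genes, 2 stood higher and 2 lower at that level, against 4.91% and 5.38% of all genes. With the covariate the counts were 0 and 2, and the median went from 0.08 to -0.09. Bag3, a cochaperone that clears damaged sarcomere proteins, stood at 157, 151 and 149.6 CPM at 6 months and 255, 199.7 and 178 CPM at 15 months, with 0.47 (SE 0.13), and Hsp90aa1 at 0.39 (SE 0.15). Dnajb5 and Hsph1, further chaperones of the cytosol, stood lower, at -0.28 (SE 0.12) and -0.31 (SE 0.13). Of 17 immediate early genes 2, Nr4a3 and Myc, stood higher at an unadjusted p under 0.05, against 4.91% of all genes. Myc stood at 4.84, 4.13 and 4.78 CPM at 6 months and 6.07, 6.10 and 7.96 CPM at 15 months, with 0.55 (SE 0.16).

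Clock genes differed in both directions. The clock is a loop in which Arntl and its partner drive the Per and Cry repressors and Nr1d1, and Nr1d1 in turn represses Arntl. Of 19 genes, 2 stood higher and 5 lower at an unadjusted p under 0.05, against 4.91% and 5.38% of all genes. Nr1d1 stood at 312, 338 and 395 CPM at 6 months and 208, 171 and 196 CPM at 15 months, with -0.86 (SE 0.16), and Arntl at 60.4, 54.8 and 34.2 CPM at 6 months and 29.4, 15.6 and 16.4 CPM at 15 months, with -1.28 (SE 0.35). Cry1 stood at 33.7, 40.3 and 26.98 CPM at 6 months and 21.2, 21.9 and 21.9 CPM at 15 months, with -0.64 (SE 0.13). Every 15-month mouse lay below every 6-month mouse in Arntl and Cry1, and in Nr1d1 by the rule that chose it. Per2 stood at 8.11, 11.02 and 20.5 CPM at 6 months and 15.5, 41.4 and 42.5 CPM at 15 months, with 1.33 (SE 0.43), and Per3 at 17.3, 21.03 and 41.1 CPM at 6 months and 35.2, 57.7 and 68.4 CPM at 15 months, with 1.02 (SE 0.33). In both, mouse 1 at 15 months and mouse 3 at 6 months overlapped. Nfil3, an output repressor, stood at 76.6, 76.9 and 28.6 CPM at 6 months and 30.6, 28.3 and 24.6 CPM at 15 months, with -1.12 (SE 0.35), and mouse 3 at 6 months again lay with the older mice. With the covariate Nr1d1, Arntl and Per2 stood at -0.72, -1.07 and 1.25, and without the 3 libraries at -0.94, -1.56 and 1.55. Without mouse 3 at 6 months, 7 clock genes stood higher at an unadjusted p under 0.05.

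Glucocorticoid-responsive genes stood lower in 15 of 17, with 6 at an unadjusted p under 0.05 against 5.38% of all genes. Fkbp5, a chaperone of the glucocorticoid receptor and one of its strongest targets, stood at 203, 232 and 126 CPM at 6 months and 84.9, 88.5 and 106 CPM at 15 months, with -1.004 (SE 0.26). Zbtb16, a zinc finger factor induced by glucocorticoids, stood at 238, 244 and 123 CPM at 6 months and 106, 75.3 and 78.02 CPM at 15 months, with -1.22 (SE 0.28). Cebpd, a transcription factor of the acute response, stood at 83.96, 68.5 and 13.5 CPM at 6 months and 13.6, 11.3 and 16.4 CPM at 15 months, and Ddit4 at 43.2, 58.4 and 8.95 CPM at 6 months and 6.14, 9.55 and 9.73 CPM at 15 months. In Cebpd and Ddit4 mice 1 and 2 at 6 months lay far above all others, and mouse 3 at 6 months lay among the 15-month mice. Their differences were -2.01 (SE 0.51) and -2.12 (SE 0.53), with wide errors for that reason. Glul, the glutamine synthetase, stood at 549, 671 and 454 CPM at 6 months and 268, 375 and 397 CPM at 15 months, with -0.69 (SE 0.18), and Klf15, a factor of amino acid and lipid use, at -0.58 (SE 0.17). The mean level of the list was 0.28, 0.37 and -0.65 log2 units at 6 months and -0.43, -0.77 and -0.42 at 15 months, so that mouse 3 at 6 months stood within the older group. With the covariate the median moved from -0.30 to -0.16 with 2 genes at an unadjusted p under 0.05, and without the 3 libraries it was -0.38 with 6.

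Glucose-sensing and atrophy genes showed a similar order of mice. Txnip, the glucose-induced inhibitor of thioredoxin, stood at 2302, 2738 and 1505 CPM at 6 months and 1921, 845 and 1372 CPM at 15 months, with -0.66 (SE 0.29), and Arrdc2, an arrestin-domain relative, at 224, 296 and 113 CPM at 6 months and 35.1, 101 and 99.9 CPM at 15 months, with -1.42 (SE 0.42). Mlxip, the glucose-sensing factor MondoA that drives these genes, stood at -0.52 (SE 0.18). These and Arrdc4 made 4 of 7 genes lower at an unadjusted p under 0.05, against 5.38% of all genes, and 2 without mouse 2 of either age. Of 25 FoxO targets and ubiquitin ligases 22 were lower, 4 of them at an unadjusted p under 0.05 against 5.38% of all genes. Trim63, the atrophy ligase MuRF1, stood at 817, 1718 and 392 CPM at 6 months and 332, 298 and 393 CPM at 15 months. Its difference of -1.52 (SE 0.46) was -0.32 with the covariate, and mouse 2 at 6 months held the highest level. Asb2, a muscle ubiquitin ligase subunit, stood at 974, 1259.8 and 709 CPM at 6 months and 520.4, 424 and 548 CPM at 15 months with no overlap, with -0.98 (SE 0.20) and -0.60 with the covariate, and Asb15 stood at -0.34 (SE 0.13). The median of the atrophy list went from -0.19 to 0.01 with the covariate, with 1 gene at an unadjusted p under 0.05, and without mouse 3 at 15 months 8 genes were.

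**Figure D5:**
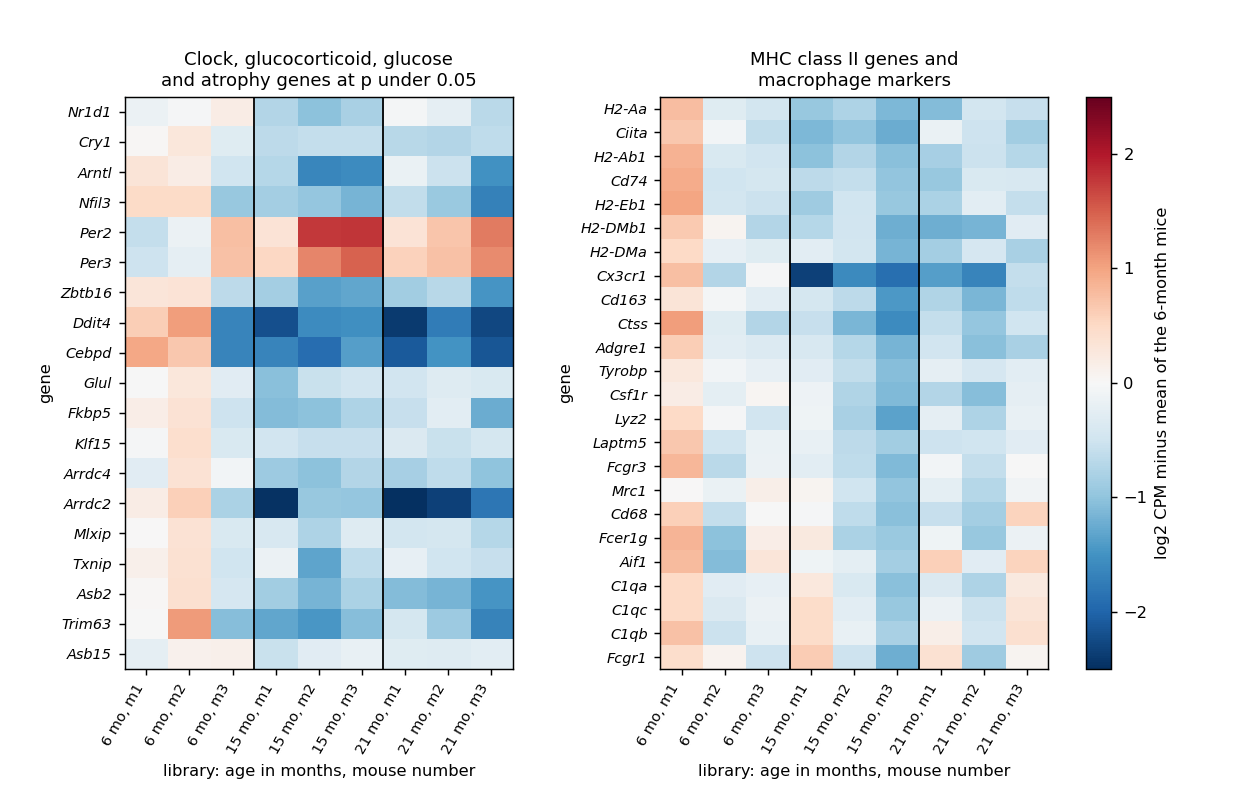
Log2 CPM minus the mean of the 6-month mice in each of the 9 mice, for clock, glucocorticoid, glucose-sensing and atrophy genes with an unadjusted p under 0.05 (left) and for all 7 MHC class II and 17 macrophage genes tested (right). On the left mouse 3 at 6 months resembles the older mice for Ddit4 (8.95 CPM) and Cebpd (13.5 CPM), and on the right mouse 1 at 6 months is the reddest column.

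Genes of growth signalling stood on both sides, and few genes of protein turnover stood apart. Of 29 insulin, IGF and mTOR genes, 2 stood higher and 4 lower at an unadjusted p under 0.05, against 4.91% and 5.38% of all genes. Grb10 and Ddit4 were among the lower. With the covariate the counts were 0 higher and 1 lower, which was Grb10. Igfbp3, which binds IGF in blood and tissue, stood at 32.4, 48.6 and 28.8 CPM at 6 months and 28.3, 17.3 and 14.3 CPM at 15 months, with -0.88 (SE 0.27). Akt1 and Mtor, kinases of the growth pathway, stood at 0.28 (SE 0.11) and 0.28 (SE 0.12), and Rictor, a subunit of the second mTOR complex, at -0.30 (SE 0.13). With the covariate Akt1, Mtor and Rictor stood at 0.21, 0.20 and -0.10. In autophagy, Atp6v0d1, a subunit of the lysosomal proton pump, and Atg5 stood at 0.20 (SE 0.08) and 0.22 (SE 0.09) while the median of 27 genes was -0.01, which total count scaling turned to 0.07. Of 31 proteasome, 79 cytosolic ribosomal and 78 mitochondrial ribosomal genes, 0 had an unadjusted p under 0.05 in edgeR in either direction. Among the smallest p-values there were those of Psmd3 and Psmc5, proteasome subunits, at -0.18 (SE 0.12) and -0.15 (SE 0.10), Rpl38 of the cytosolic ribosome at 0.24 (SE 0.13), and Mrps2 and Mrpl40 of the mitochondrial ribosome at 0.24 (SE 0.11) and 0.26 (SE 0.12). With the covariate Psmd3 and Psmc5 stood at 0.035 and -0.023. The proteasome median went from -0.08 to 0.15 with the covariate and to 0.10 without the 3 libraries, and from 6 to 29 and 28 of 31 genes higher. With the covariate the genes higher went from 39 to 69 of 79 for the cytosolic ribosome and from 13 to 22 of 27 for autophagy.

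Immune genes stood lower at 15 months. MHC class II molecules present peptides on macrophages, dendritic cells and B cells, and interferon gamma raises them together with the immunity GTPases. Of 7 class II genes 7 were lower, 6 at an unadjusted p under 0.05 against 5.38% of all genes, with a median of -0.95. Cd74, the invariant chain, stood at 114, 42.2 and 44.1 CPM at 6 months and 37.9, 39.3 and 30.3 CPM at 15 months, with -0.90 (SE 0.34). H2-Aa, a class II chain, stood at 59.4, 28.5 and 25.3 CPM at 6 months and 18.2, 20.4 and 16.05 CPM at 15 months, with -1.05 (SE 0.30), and H2-Ab1, its partner chain, stood at -1.07 (SE 0.31). Mouse 1 at 6 months held more than 2 times the level of either group mate in these 3 genes, and mice 2 and 3 lay just above the 15-month mice. Ciita, the master regulator of the class, stood at 4.52, 2.69 and 1.84 CPM at 6 months and 1.30, 1.42 and 1.20 CPM at 15 months, with -1.20 (SE 0.34). H2-Eb1 and H2-DMb1, further class II genes, stood at -0.95 (SE 0.36) and -0.88 (SE 0.38) with groups that overlapped. Without mouse 1 at 6 months the median was -0.49 and 3 genes lay lower at an unadjusted p under 0.05, and without mouse 3 at 15 months 3 did.

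Of 28 interferon-stimulated genes 23 were lower, 8 at an unadjusted p under 0.05 against 5.38% of all genes. Iigp1, an immunity GTPase, stood at 159, 40.3 and 16.8 CPM at 6 months and 16.2, 19.1 and 15.3 CPM at 15 months, with -2.09 (SE 0.62). Igtp, of the same family, stood at 65.7, 27.8 and 15.7 CPM at 6 months and 13.6, 13.7 and 15.7 CPM at 15 months, with -1.34 (SE 0.44). In both, mice 1 and 2 at 6 months lay above all others and mouse 3 lay at or near the 15-month level. Gbp4 and Gbp7, guanylate-binding proteins, stood at -1.04 (SE 0.29) and -0.80 (SE 0.24), Ifi47 at -0.98 (SE 0.31) and Usp18, which dampens interferon signalling, at -0.64 (SE 0.23). Without mouse 1 at 6 months the median went from -0.30 to -0.11 and 5 genes lay lower at an unadjusted p under 0.05, while without mouse 3 at 6 months 15 did. MHC class I and immunoproteasome genes stood lower in 16 of 17, with a median of -0.35. In 1 of them the groups did not overlap, against 7.14% of all genes, and 4 had an unadjusted p under 0.05, against 5.38%. Without mouse 1 at 6 months the class I median was -0.16 with 1 gene lower at that level, and without mouse 3 at 6 months -0.54 with 10. Tap1, the peptide transporter, stood at 12.8, 9.39 and 5.27 CPM at 6 months and 4.52, 5.12 and 4.36 CPM at 15 months. Its difference was -0.97 (SE 0.28), and Nlrc5, the regulator of class I, H2-T23 and H2-D1 stood at -0.92 (SE 0.34), -0.65 (SE 0.28) and -0.46 (SE 0.21). Exons of Tap1 lie opposite those of Psmb9, and class I genes are near-identical copies, so their counts are uncertain.

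Macrophage markers stood lower, as the class II genes did, and their part in that result was not tested. Mean levels in mice 1, 2 and 3 at 15 months were -0.13, -0.62 and -1.08 log2 units for macrophage markers. For class II genes they were -0.78, -0.63 and -1.07, so mouse 3 was lowest in both lists and mice 1 and 2 changed places. At 6 months macrophage markers stood at 0.54, -0.38 and -0.16 and class II genes at 0.76, -0.26 and -0.50. Mouse 1 was highest there in both lists. All 17 macrophage markers were lower, 7 at an unadjusted p under 0.05 against 5.38% of all genes, and 0 of the 17 were absent from the 6 libraries. Their summed level ranged over 211 to 347 CPM at 6 months and 109.9 to 238 CPM at 15 months, so the sums overlapped, with mouse 1 highest in both groups. Cx3cr1, a chemokine receptor of resident cells, stood at 1.57, 0.563 and 0.920 CPM at 6 months and 0.186, 0.308 and 0.253 CPM at 15 months, with -1.997 (SE 0.50) at a low level. Cd163, a scavenger receptor of resident macrophages, stood at 34.1, 26.5 and 22.6 CPM at 6 months and 20.02, 17.3 and 10.04 CPM at 15 months, with -0.81 (SE 0.24). Ctss, a protease of antigen processing, stood at 28.8, 11.3 and 8.34 CPM at 6 months and 9.30, 6.35 and 4.67 CPM at 15 months, with -1.25 (SE 0.42), and Adgre1, the marker F4/80, at 10.4, 5.63 and 5.33 CPM at 6 months and 5.14, 4.13 and 3.03 CPM at 15 months, with -0.80 (SE 0.29). Tyrobp and Csf1r, an adaptor and the growth factor receptor of macrophages, stood at -0.63 (SE 0.24) and -0.61 (SE 0.26). With the covariate the median went from -0.61 to -1.15 with 16 genes at an unadjusted p under 0.05, and without the 3 libraries to -1.06 with 15. Without mouse 1 at 6 months it was -0.24 with 2 genes, and without mouse 3 at 15 months -0.41, also with 2. Of 12 lymphocyte markers 1 passed the filter, Jchain, at 0.60, and of 8 neutrophil markers 2 did, S100a9 and Csf3r, at 1.43 and 0.04.

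Markers of the other cell types are given by their summed levels and leading members. Summed erythrocyte markers ranged over 383 to 856 CPM at 6 months and 561 to 717 CPM at 15 months, with Hba-a1 and Hba-a2, near-identical alpha globins, at 0.13 (SE 0.33) and 0.08 (SE 0.32). Endothelial markers summed to 756 to 1048 and 832 to 1025 CPM, and Emcn, a sialomucin of capillaries and veins, stood at 21.4, 16.02 and 19.99 CPM at 6 months and 28.6, 29.3 and 23.4 CPM at 15 months, with 0.50 (SE 0.13). Smooth muscle and pericyte markers had a median of 0.29 and -0.19 with the covariate, and summed to 768 to 1113 and 1049.9 to 1329 CPM. Kcnj8, the potassium channel pore of pericytes, stood at 23.1, 20.8 and 22.8 CPM at 6 months and 41.5, 37.5 and 30.3 CPM at 15 months, with 0.71 (SE 0.15) and 0.42 with the covariate. Schwann cell and myelin markers stood higher in 11 of 12, with S100b at 1.44 (SE 0.46) and Mbp, myelin basic protein, at 23.2, 16.4 and 26.1 CPM at 6 months and 43.6, 24.7 and 26.3 CPM at 15 months. Their median went from 0.31 to -0.30 with the covariate. Adipocyte markers, 5 of 9 tested, had a median of -1.48, whereas their summed level ranged over 176 to 326 and 242 to 401 CPM, and Cfd, the adipokine adipsin, stood at 3.08, 23.03 and 3.25 CPM at 6 months and 3.60, 1.97 and 3.29 CPM at 15 months. The median rested on mouse 2 at 6 months, without which it was 0.44. Satellite cell markers summed to 123 to 171 and 111 to 118 CPM, with Sdc4, a syndecan of quiescent cells, at 60.2, 80.05 and 46.5 CPM at 6 months and 38.99, 39.2 and 34.7 CPM at 15 months and at -0.73 (SE 0.21). Heyl, a target of Notch, and Chodl, a lectin, stood at 0.46 (SE 0.18) and -0.50 (SE 0.22). Fibro-adipogenic markers stood higher in 8 of 12 and lower in 4, and summed to 2913 to 4425 and 2966 to 3029.9 CPM. Gsn alone held 1524 to 2335 CPM of that sum at 6 months. Among the 4 lower were Pdgfra, which defines these cells, and Gsn, at -0.35 (SE 0.13) and -0.39 (SE 0.16). With the covariate they stood at -0.28 and -0.12. Tenocyte markers summed to 151 to 239 and 87.8 to 255 CPM, with Kera, the proteoglycan keratocan, at -1.57 (SE 0.53). With the covariate the median of endothelial markers went from 0.03 to -0.17, of satellite cell markers from -0.30 to -0.06, of fibro-adipogenic markers from 0.04 to -0.07 and of tenocyte markers from -0.12 to 0.25.

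Collagen and matrix genes stood lower in 24 of 29. Of these 2 had an unadjusted p under 0.05, near the 5.38% of all genes, and in 2 the groups did not overlap, near the 7.14% of all genes. Col5a3, a fibrillar collagen chain, stood at 74.5, 70.7 and 94.9 CPM at 6 months and 54.9, 46.2 and 41.1 CPM at 15 months, with -0.76 (SE 0.16) and -0.87 with the covariate, and P4ha1, which hydroxylates collagen, stood at -0.33 (SE 0.12). The covariate moved the median from -0.23 to -0.47 with 12 genes at an unadjusted p under 0.05. Without mouse 3 at 6 months, the highest for the list, the median was 0.08, so its direction turned, and without mouse 2 at 6 months 9 genes had an unadjusted p under 0.05. Of 14 metalloproteinases and inhibitors, 1 stood higher and 4 lower at an unadjusted p under 0.05, against 4.91% and 5.38% of all genes. In 0 of the 14 did all 15-month mice lie below all 6-month mice, against 7.14% of all genes. Mmp14, Mmp2, Mmp19 and Mmp9 stood at -0.46 (SE 0.17), -0.38 (SE 0.15), -0.64 (SE 0.26) and -0.76 (SE 0.32), and Mmp3, a stromelysin at a low level, at 1.60 (SE 0.55). The 4 lower genes at that p became 1 with the covariate. They became 0 with total count scaling and 0 without mouse 3 at 15 months.

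Stress and cell cycle genes held a few members with clear separation. Gadd45g, a growth arrest and stress gene, stood at 100.4, 74.4 and 86.3 CPM at 6 months and 31.6, 50.7 and 52.8 CPM at 15 months, with -0.95 (SE 0.20) and -0.98 with the covariate. Cdkn1b, an inhibitor of the cell cycle, stood at 64.9, 69.3 and 61.9 CPM at 6 months and 56.4, 52.9 and 46.8 CPM at 15 months, with -0.33 (SE 0.09), and Lmnb1, a lamin, at -0.37 (SE 0.13). With Trp53inp1 these made 4 of 18 genes lower at an unadjusted p under 0.05, against 5.38% of all genes, and 6 had groups that did not overlap, against 7.14%. The median of the list was -0.13, -0.08 with the covariate and -0.19 without the 3 libraries. Of 27 antioxidant genes, Gpx4, which protects membranes from lipid peroxides, stood at 236, 241 and 192 CPM at 6 months and 286, 264 and 282 CPM at 15 months, with 0.31 (SE 0.11). Nfe2l2, the regulator NRF2, and Gstm1, a glutathione transferase, stood at 0.29 (SE 0.12) and -0.24 (SE 0.10).

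Few patterning and secreted factors stood apart. Of 26 homeobox and patterning factors, 3 stood higher at an unadjusted p under 0.05 and 0 lower, against 4.91% and 5.38% of all genes. They were Irx3, Meis1 at 0.50 (SE 0.21) and Tbx1 at 1.41 (SE 0.59). Of 19 myokine genes, Fndc5, the precursor of irisin, stood at 35.8, 21.7 and 24.5 CPM at 6 months and 56.3, 55.4 and 30.8 CPM at 15 months, with 0.80 (SE 0.35) and 0.003 with the covariate. Npy1r, a receptor of the transmitter neuropeptide Y found on vessels, stood at 10.2, 8.70 and 8.28 CPM at 6 months and 5.27, 5.86 and 5.94 CPM at 15 months, with -0.67 (SE 0.15) and -0.74 with the covariate. The groups did not overlap, and against the same 6-month mice the 21-month mice stood at -1.26.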

How the data were processed

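RNA of whole gastrocnemius was sequenced after TRIzol extraction and oligo(dT) selection, per the labels' protocols. The authors deposited 1 table of estimated counts per gene, by Entrez ID and symbol, in which 90.0 to 90.7% of a library's values were whole within 0.005. Reads had been placed on build mm10, per the submitters' processing notes. For the aligner, the counter, its annotation and its strand rule, details were not given in the sources used here. Estimated counts share reads between similar genes, so near-identical copies are uncertain, and 15 of the named genes have exons opposite a gene of the table (GENCODE vM21).

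Columns were matched to samples by life stage and number, and 0 columns belonged to other samples. Estimated counts were rounded, filtered with filterByExpr (minimum count 10), scaled with TMM (factors 0.923 to 1.05) and tested by quasi-likelihood in edgeR 4.0.16 under R 4.3.3, in a model of age over all 9 libraries (6 residual and 4.24 prior degrees of freedom). The contrast was 15 minus 6 months, and p-values were adjusted by Benjamini-Hochberg over all 13044 genes. Totals of the 6 libraries ran from 15354396 to 17317856, and the biological coefficient of variation was 0.164. Levels are CPM with TMM scaling, and changes are log2 with SE. Entrez IDs were matched to RefSeq for GRCm38.p6 (17188 of 17314), the source of coordinates and the promoter.

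Named genes were the 15 higher and 15 lower genes with the smallest p-values among genes of at least 2 CPM with groups that did not overlap and no predicted name, and of each of 54 lists the members with an unadjusted p under 0.05 (at most 6) or else those with the smallest p-values. Thra, Thrb, myosins and muscle markers were named in any case, and some genes the rule selects are not reported here. The comparison, its lists and this rule were chosen with earlier results of these data known, and no list was tested as a set. Mitochondrially encoded genes were listed but had 0 members in the table. Alternatives were DESeq2 1.42.0, RLE and total count scaling, no filter, a filter of 5 CPM in 3 libraries, a replicate block, only the 6 libraries, limma 3.58.1 voom with sample weights, the slow fibre covariate, 3 libraries left out, and each library left out.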

Additional observations from a re-analysis of the deposited data

How the results depend on the processing

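The count of 1 called gene was 114 in DESeq2 and 0 with total count scaling, the 5 CPM filter, the replicate block, only the 6 libraries compared, or the slow fibre covariate, where the numbers of genes with an unadjusted p under 0.05 in edgeR were 1457, 1076, 1191, 1155 and 1219. It stayed at 1 with RLE scaling, no filter, voom weights and without the 3 libraries. Leaving out 1 library at a time gave 0 to 10 calls and 815 to 1767 genes with an unadjusted p under 0.05. The log2 fold change of Mybph ran from -3.06 to -2.39 over those, and was -2.58 with total count scaling, -2.66 with the 5 CPM filter or only the 6 libraries, -2.68 with the replicate block and -2.92 with the covariate, its adjusted p there being 0.115, 0.0654, 0.342, 0.0817 and 0.269. The cause was not tested. Replicate numbers did not pair the mice: the correlations of same-numbered deviations were 0.41, -0.10 and -0.04, and the replicate block took the count from 1 to 0.

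Of the named genes 13 turned sign somewhere. With the covariate they stood at -0.18 (Atp1b1), 0.35 (Cfd), 0.0020 (Chodl), 0.022 (Ckm), -0.67 (Csf3r), -0.30 (Esrrb), -0.0018 (Fabp3), -0.90 (Myh1), -0.94 (Myh2), 0.17 (Myh4) and 0.035 (Psmd3). Without the 3 libraries Csf3r, Myh1 and Myh4 stood at -0.60, -0.18 and 0.098. Csf3r stood at -0.31 with voom weights. Leaving out 1 library at a time, Csf3r ranged from -0.37, without mouse 1 at 15 months, to 0.59, Hba-a1 from -0.10 to 0.42 and Hba-a2 from -0.15 to 0.36, both lowest without mouse 1 at 6 months, and Myh4 from -0.28 to 0.12, highest without mouse 1 at 15 months. Of 50 list medians, 23 moved with the covariate by more than the spread between mice and 6 without the 3 libraries. Low genes such as Cx3cr1 and Adora1 carry counting error on top of that spread.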
